A study of Arabidopsis thaliana with 6 samples.

Results

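The genes described here are 10 nuclear genes of asparagine, glutamine and glutamate metabolism in Arabidopsis thaliana, chosen by name and locus: the asparagine synthetase genes ASN1 (AT3G47340_at), ASN2 (AT5G65010_at) and ASN3 (AT5G10240_at), the cytosolic glutamine synthetase genes GLN1;1 (AT5G37600_at), GLN1;2 (AT1G66200_at), GLN1;3 (AT3G17820_at) and GLN1;4 (AT5G16570_at), the glutamate dehydrogenase genes GDH1 (AT5G18170_at) and GDH2 (AT5G07440_at), and the NADH-dependent glutamate synthase gene GLT1 (AT5G53460_at). All 10 had a probe set, out of 21430 on the arrays, and all 10 passed the filter for testing (log2 4 or more on 3 or more arrays), which 16210 probe sets met. Leaves of soil-grown plants aged 6 weeks, raised under short days at 400 ppm CO2, came from 3 pools held at 100 ppm CO2 for 24 h (low CO2) and from 3 pools left at 400 ppm (ambient CO2). Each pool held leaves of 4 to 5 plants and gave 1 array. The labels give neither the strain or genotype of the plants nor the hour of harvest, and nothing states that pools were grown at separate times, so p values measure the spread between these pools.

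Plants bring ammonium into amino acids through glutamine synthetase, which adds it to glutamate, and glutamate synthase, which passes the amide nitrogen on to 2-oxoglutarate. In a lit leaf most of this work is done in the chloroplast by GLN2 and GLU1, which recapture the ammonium released by photorespiration, while the cytosolic GLN1 enzymes serve transport through the vasculature and recovery of nitrogen from ageing tissue. Asparagine synthetase moves the amide of glutamine to aspartate, making a transport and storage compound that carries more nitrogen per carbon than glutamine, and glutamate dehydrogenase of mitochondria releases ammonium and 2-oxoglutarate from glutamate, a reaction known to matter when carbon is scarce. ASN1 was first named DIN6, for its induction in darkness, and is repressed by light and sugar, whereas ASN2 is induced by light.

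Values are the authors' GCRMA log2 expression levels, on which 1 unit is a 2-fold difference. Low CO2 and ambient CO2 were compared with limma and Benjamini-Hochberg adjustment over all 16210 tested probe sets. Low CO2 replicate 1 stood apart from its group: across probe sets it correlated at 0.980 to 0.986 with the ambient arrays, but at 0.962 with replicate 2 and 0.947 with replicate 3 of its own group, a pair that correlated at 0.992. Values are therefore given without that array as well wherever it changes them, and since the array was singled out for standing apart, limma p values without it are likely too small. Leaf markers were as labelled, with RCA, LHCB3, CA1 and PSAD1 at log2 12.7 or more on every array. In whole leaves, fewer cells of a type and less RNA per cell cannot be told apart.

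Among the asparagine synthetase genes, ASN1 was far higher and ASN2 and ASN3 were lower on low CO2 replicates 2 and 3 than on any ambient array, and low CO2 replicate 1 lay nearer to ambient air for all 3. Among the ammonium-assimilating genes, GLN1;1 was higher and GLT1 lower on every low CO2 array than on every ambient array. GLN1;2, GLN1;3 and GLN1;4 differed by less than log2 0.2 in the mean. Of these GLN1;3 also had no overlap, at a difference of 0.08, and GLN1;4 differed by 0.54 without low CO2 replicate 1. GDH1 and GDH2 were higher than every ambient array on low CO2 replicates 2 and 3 and not on replicate 1. By limma on all 6 arrays 0 of the 10 genes passed an adjusted p of 0.05, as did 0% of all tested probe sets, and 5 of the 10 (ASN1, ASN2, ASN3, GLN1;1 and GLT1) had an unadjusted p under 0.05, against 26.1% of all. Without low CO2 replicate 1, limma called 4 genes higher (ASN1, GLN1;1, GDH1, GDH2) and 3 lower (ASN2, ASN3, GLT1) at an adjusted p under 0.05. Among all probe sets that fit called 16.8% higher and 18.5% lower, 35.3% in all.

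**Figure D1:**
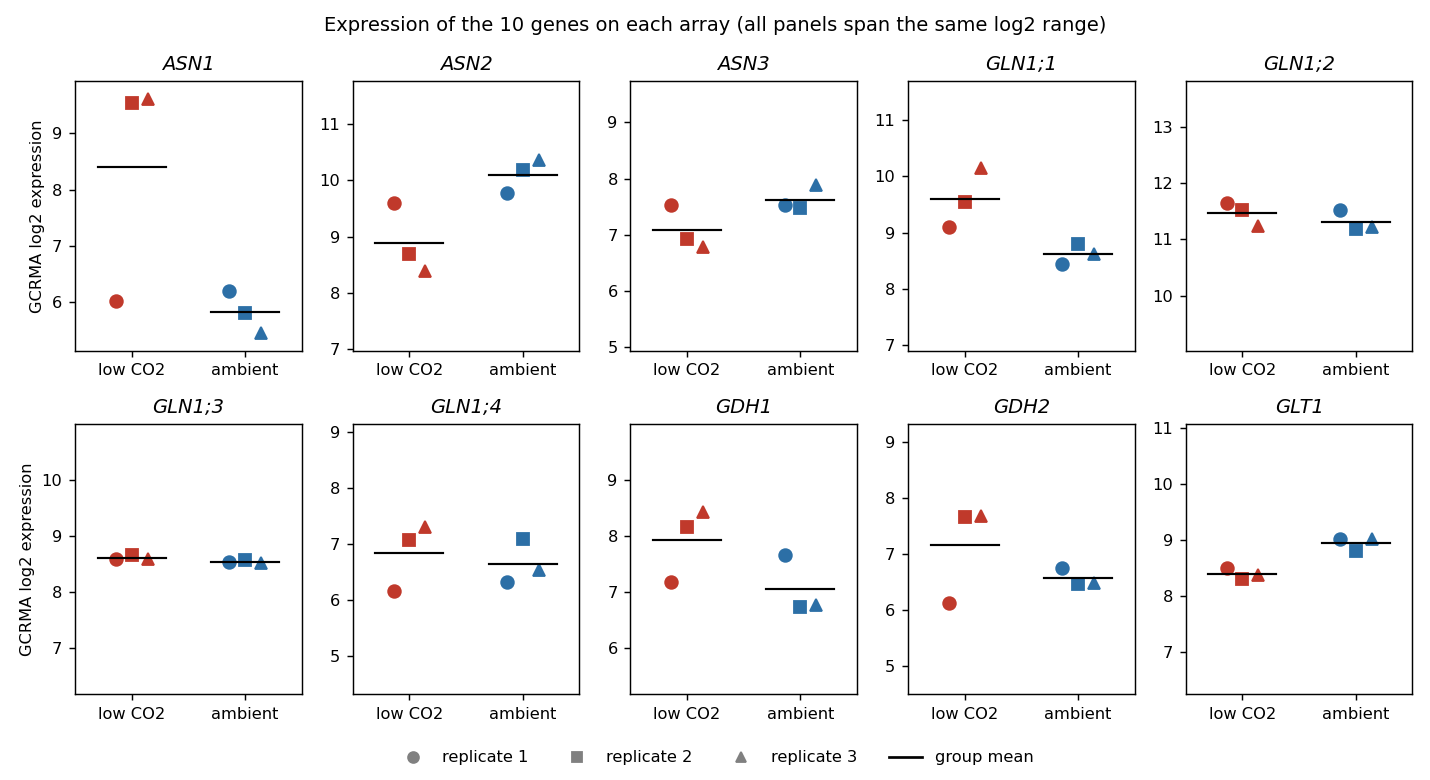
GCRMA log2 expression of each gene on the 3 low CO2 arrays (red) and 3 ambient CO2 arrays (blue), 1 panel per gene, with symbols for replicate number and a line at each group mean; every panel spans the same number of log2 units. The groups are fully apart for ASN2, GLN1;1, GLN1;3 and GLT1, and low CO2 replicate 1 of ASN1 lies at 6.02 while the other low CO2 arrays lie at 9.55 and 9.61.

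ASN1, the dark-induced asparagine synthetase gene, stood at 6.02, 9.55 and 9.61 on low CO2 replicates 1, 2 and 3, against 6.19, 5.80 and 5.45 on ambient replicates 1, 2 and 3. Replicates 2 and 3 of low CO2 were over 3 log2 units above every ambient array, whereas replicate 1 lay inside the ambient range, so the groups overlapped. The mean level was 8.39 ± 2.05 in low CO2 and 5.81 ± 0.37 in ambient air (SD, n = 3 each), a difference of 2.58 on the log2 scale (95% interval 0.38 to 4.78, limma adjusted p = 0.155), or 5.98-fold. It was the 62nd largest positive difference among the 16210 probe sets. Without low CO2 replicate 1 ASN1 rose by 3.77 (SE 0.21), or 13.6-fold, with a limma adjusted p of 1.45e-04, in a range up to 0.411 over the 6 omissions of an array. Without low CO2 replicate 3 the difference was 1.97.

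ASN2, the light-induced asparagine synthetase gene, lay in the opposite direction. Its levels were 9.60, 8.68 and 8.38 on low CO2 replicates 1, 2 and 3, against 9.77, 10.18 and 10.35 on ambient replicates 1, 2 and 3. Every low CO2 array was below every ambient array, with replicate 1 closest to the ambient values. The mean was 8.89 ± 0.63 in low CO2 and 10.10 ± 0.30 in ambient air (SD, n = 3 each), a difference of -1.21 (95% interval -1.99 to -0.44, limma adjusted p = 0.130) that made ambient air 2.32-fold higher and ranked 74th among the negative differences of all tested probe sets. Without low CO2 replicate 1 ASN2 fell by 1.57 (SE 0.19, limma adjusted p = 0.00222, up to 0.395 over the 6 omissions).

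ASN3, the remaining asparagine synthetase gene, had smaller differences than ASN2. It stood at 7.53, 6.93 and 6.78 on low CO2 replicates 1, 2 and 3, against 7.52, 7.47 and 7.89 on ambient replicates 1, 2 and 3. Replicate 1 of low CO2 lay within the ambient range and the other low CO2 arrays below it. The difference of -0.55 had a 95% interval of -1.08 to -0.01 (limma adjusted p = 0.185). With low CO2 replicate 1 left out ASN3 fell by 0.77 (SE 0.15, limma adjusted p = 0.00988, up to 0.465 over the 6 omissions).

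Whether the asparagine synthetase genes responded unequally was asked with the log2 difference between 2 genes on the same array. This difference was set against its mean on the ambient arrays. For ASN1 minus ASN2 it was 0.711, 5.15 and 5.52 on low CO2 replicates 1, 2 and 3, against 0.708, -0.10 and -0.61 on ambient replicates 1, 2 and 3. The groups did not overlap, but low CO2 replicate 1 and ambient replicate 1 were almost level, and the exact permutation p of this pair was 0.2 after quantile normalization. An exact two-sided permutation test of 3 against 3 arrays cannot go below p = 0.1, and of the 10 pairs of genes within a family 4 reached it: ASN1 against ASN2, ASN2 against ASN3, GLN1;1 against GLN1;3 and GLN1;1 against GLN1;4, each with an adjusted p of 0.25 over the 10 pairs in the exact test. ASN2 lay lower relative to ASN3 on every low CO2 array, at -0.41, -0.72 and -0.88 on replicates 1, 2 and 3, against -0.23, 0.24 and -0.01 on ambient replicates 1, 2 and 3. ASN1 against ASN3 overlapped between the groups (exact permutation p = 0.2), and with low CO2 replicate 1 left out its shift of 3.13 became 4.54 with p = 0.1, also the smallest an exact test of 2 against 3 arrays can give. In the same comparison without that array ASN1 minus ASN2 shifted by 5.34, in place of 3.79, and ASN2 minus ASN3 by -0.80, in place of -0.67.

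**Figure D2:**
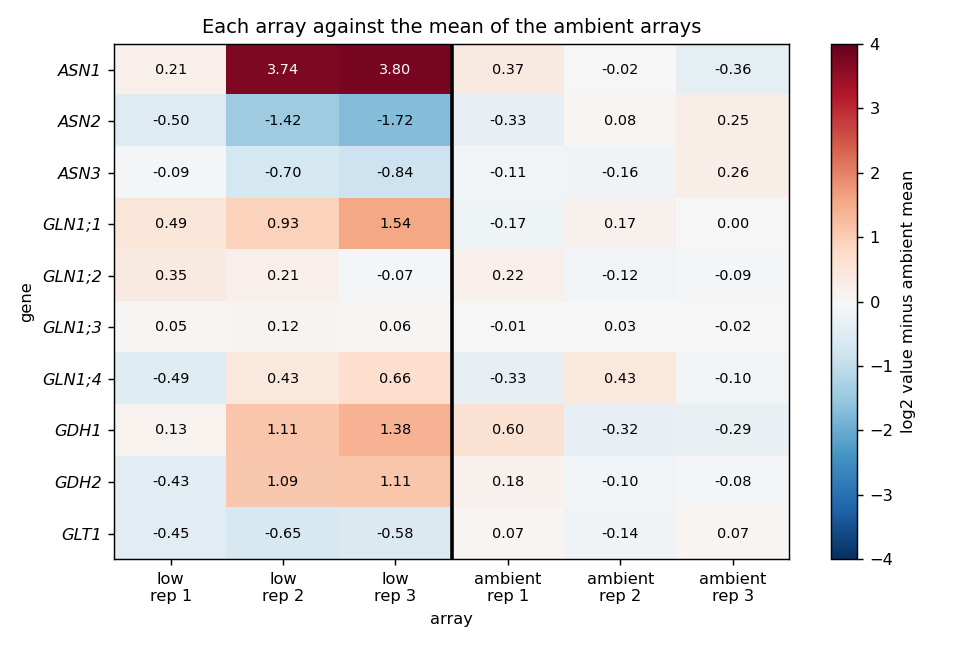
Log2 value of each gene (rows) on each array (columns, low CO2 left and ambient CO2 right) minus the mean of that gene on the 3 ambient arrays, with red for higher and blue for lower and the value printed in each cell. ASN1 reaches 3.74 and 3.80 on low CO2 replicates 2 and 3 and 0.21 on replicate 1, while GLT1 lies between -0.65 and -0.45 on all 3.

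Among the cytosolic glutamine synthetase genes, GLN1;1, which in Arabidopsis encodes a high-affinity form of the enzyme, had the largest difference. Its levels were 9.11, 9.54 and 10.16 on low CO2 replicates 1, 2 and 3, against 8.44, 8.79 and 8.61 on ambient replicates 1, 2 and 3. All low CO2 arrays were above all ambient arrays, including replicate 1. The mean was 9.60 ± 0.53 in low CO2 and 8.61 ± 0.17 in ambient air (SD, n = 3 each), a 1.98-fold difference of 0.99 on the log2 scale (95% interval 0.36 to 1.61, limma adjusted p = 0.130). GLN1;1 rose by 1.23 without low CO2 replicate 1 (SE 0.20, limma adjusted p = 0.00511, up to 0.395 over the 6 omissions), and the difference was 0.71 without low CO2 replicate 3.

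The other 3 genes of this family had smaller differences. GLN1;2, a vascular and leaf form, stood at 11.66, 11.52 and 11.24 on low CO2 replicates 1, 2 and 3, against 11.52, 11.18 and 11.22 on ambient replicates 1, 2 and 3, and the difference of 0.16 had a 95% interval of -0.21 to 0.54 (limma adjusted p = 0.522). It was 0.07 with low CO2 replicate 1 left out. Here low CO2 replicate 1 was the highest array. GLN1;3, the steadiest of the 10 genes, stood at 8.59, 8.65 and 8.59 in low CO2, against 8.53, 8.57 and 8.52 in ambient air. Its groups did not overlap, yet they differed by 0.08, and by 0.09 with low CO2 replicate 1 left out (95% interval of the first -0.16 to 0.31, limma adjusted p = 0.635), and the difference was 0.051 with quantile-normalized arrays and 0.045 with median-centred arrays. GLN1;4, known from ageing leaves, varied most within the family's ambient group, at 6.32, 7.08 and 6.55 on ambient replicates 1, 2 and 3, beside 6.16, 7.08 and 7.31 on low CO2 replicates 1, 2 and 3. Its difference of 0.20 (95% interval -0.60 to 0.99, limma adjusted p = 0.725) became -0.032 without low CO2 replicate 3 and 0.54 without low CO2 replicate 1 (limma adjusted p = 0.101, up to 0.974 over the 6 omissions).

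GLN1;1 was also compared with its relatives within each array. Relative to GLN1;3 it lay at 0.44, 0.81 and 1.48 on low CO2 replicates 1, 2 and 3, against -0.16, 0.15 and 0.02 on ambient replicates 1, 2 and 3, and relative to GLN1;4 at 0.98, 0.50 and 0.88, against 0.16, -0.26 and 0.10. These are 2 of the 4 pairs without overlap. The mean shift relative to GLN1;2 was 0.82, with overlapping groups (exact permutation p = 0.2). The shifts relative to GLN1;2, GLN1;3 and GLN1;4 without low CO2 replicate 1 were 1.16, 1.14 and 0.69. The GLN1 genes are close in sequence, and whether a probe set also binds transcripts of a relative was not tested.

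GLT1, the plastid glutamate synthase that takes its electrons from NADH, had the smallest p of the 10 genes. It stood at 8.49, 8.30 and 8.37 on low CO2 replicates 1, 2 and 3, against 9.02, 8.81 and 9.02 on ambient replicates 1, 2 and 3. The low CO2 arrays spanned 0.20 and all lay below the ambient arrays, with replicate 1 beside the others. The mean was 8.39 ± 0.10 in low CO2 and 8.95 ± 0.12 in ambient air (SD, n = 3 each), and the difference of -0.56 had a 95% interval of -0.84 to -0.28 (limma adjusted p = 0.118), ambient air being 1.48-fold higher. Over the 6 omissions of an array the difference stayed between -0.63 and -0.52, with limma adjusted p values from 0.00873, without low CO2 replicate 1, to 0.395.

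The glutamate dehydrogenase genes encode the beta (GDH1) and alpha (GDH2) subunits of the mitochondrial enzyme. GDH1 stood at 7.19, 8.17 and 8.44 on low CO2 replicates 1, 2 and 3, against 7.66, 6.74 and 6.77 on ambient replicates 1, 2 and 3. Ambient replicate 1 was above low CO2 replicate 1, and the other arrays of the 2 groups were apart. The difference was 0.87 (95% interval -0.04 to 1.78, limma adjusted p = 0.203). When low CO2 replicate 1 was left out, GDH1 rose by 1.24, or 2.37-fold (limma adjusted p = 0.0154, up to 0.497 over the 6 omissions).

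GDH2 had the widest range within the low CO2 group after ASN1, at 1.55. It stood at 6.14, 7.66 and 7.69 on low CO2 replicates 1, 2 and 3, against 6.75, 6.47 and 6.49 on ambient replicates 1, 2 and 3. Replicate 1 of low CO2 was the lowest of all 6 arrays and the other low CO2 arrays were the highest. The difference of 0.59 (95% interval -0.38 to 1.56, limma adjusted p = 0.379) became a rise of 1.10, or 2.15-fold, when low CO2 replicate 1 was left out (limma adjusted p = 0.00186, up to 0.737 over the 6 omissions) and 0.33 without low CO2 replicate 3. GDH1 minus GDH2 differed by 0.28 between low and ambient CO2, with overlapping groups (exact permutation p = 0.3), and by 0.14 without low CO2 replicate 1.

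**Figure D3:**
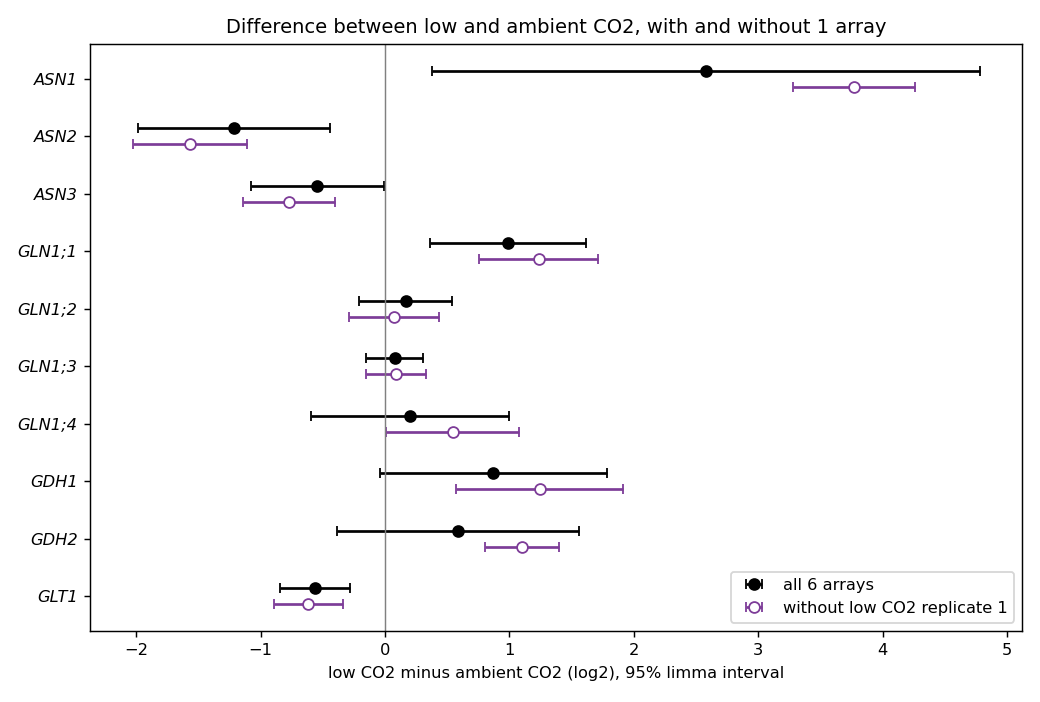
Low CO2 minus ambient CO2 on the log2 scale for each gene, with 95% limma intervals, from all 6 arrays (filled) and without low CO2 replicate 1 (open). The interval of ASN1 narrows to 3.28 to 4.26 without that array, and that of GLT1 moves little, to -0.90 to -0.33.

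Over the 10 genes, 2 lay above and 2 below every ambient array on all 3 low CO2 arrays, against 14.6% above and 14.3% below, 28.9% in all, of the tested probe sets. On low CO2 replicates 2 and 3 alone 5 lay above and 3 below, 8 of 10, against 28.5% above and 35.1% below, 63.6% in all, of the tested probe sets. Low CO2 replicate 1 lay above the ambient range for 3 genes (GLN1;1, GLN1;2 and GLN1;3), below it for 4 (ASN2, GLN1;4, GDH2 and GLT1) and within it for 3 (ASN1, ASN3 and GDH1). The matching shares of all tested probe sets on that array were not computed, so these counts cannot be read as particular to the 10 genes. The median difference of the 10 genes was 0.18, against -0.03 over all tested probe sets, with 7 genes higher and 3 lower, where 46.2% of all were higher.

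Of 27 other genes of amide, glutamate and aspartate metabolism that were listed, 22 had a probe set and 21 were tested; GAD3, GAD4, GAD5, ALAAT1 and ALAAT2 were not analysed here, and GLN1;5 stayed under log2 4 on every array. Of the 21, the low CO2 mean was higher for 7 and lower for 14, and their median difference was -0.11. By limma 0 passed on all 6 arrays, and 5 of 21 had an unadjusted p under 0.05, a share close to the 26.1% of all tested probe sets. Without low CO2 replicate 1 limma called 2 higher and 6 lower, 8 of 21, again close to the 35.3% of all. The chloroplast enzymes of ammonium recapture differed little: GLN2, plastid glutamine synthetase, had 12.83, 12.80 and 12.75 on low CO2 replicates 1, 2 and 3 against 12.84, 12.78 and 12.82 in ambient air, and the ferredoxin-dependent glutamate synthase gene GLU1 differed by 0.07 (SE 0.11). The second gene of that synthase, GLU2, differed by -0.20 (SE 0.19), and by -0.027 without low CO2 replicate 1.

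Of 6 other genes of glutamine and glutamate metabolism, all had a lower mean in low CO2, with a median difference of -0.47. CARB, the large subunit of carbamoyl phosphate synthetase, which draws on glutamine for arginine and pyrimidines, stood at 8.70, 7.59 and 7.36 on low CO2 replicates 1, 2 and 3, against 8.78, 8.68 and 8.94 in ambient air, and its small subunit gene CARA at 9.11, 8.26 and 8.17, against 8.97, 9.08 and 9.25. Limma called both lower without low CO2 replicate 1, CARB by -1.32 and CARA by -0.88. PII, the chloroplast protein that senses nitrogen status and governs arginine synthesis, was lower on all 3 low CO2 arrays, at 8.55, 8.64 and 8.33, against 9.12, 9.15 and 8.93 (difference -0.56, limma adjusted p = 0.118). P5CDH, which forms glutamate in the last step of proline breakdown, differed by -0.37 and likewise had no overlap (limma adjusted p = 0.136). Without low CO2 replicate 1 limma also called PII and P5CDH lower, by -0.58 and -0.44. That made 4 of the 6 genes called lower, against 18.5% of all tested probe sets.

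Aspartate, the acceptor in asparagine synthesis, is made by aspartate aminotransferases, whose 5 genes went both ways. ASP4 was lower on every low CO2 array, at 6.77, 6.21 and 6.30, against 7.38, 7.08 and 7.29 in ambient air (difference -0.83, SE 0.18, limma adjusted p = 0.118). ASP1, the mitochondrial form, differed by -0.74 (limma adjusted p = 0.154) and ASP3 by 0.46 (limma adjusted p = 0.225). Limma called ASP1 and ASP4 lower and ASP3 higher when low CO2 replicate 1 was left out. In the GABA shunt, which starts from glutamate, the GABA transaminase gene POP2 stood at 9.23, 10.08 and 10.56 on low CO2 replicates 1, 2 and 3, against 9.11, 9.33 and 9.35, and rose by 1.05 without low CO2 replicate 1. SSADH, the next step of the shunt, differed by 0.34 (SE 0.26), and by 0.57 without low CO2 replicate 1. The asparaginase genes, whose products release ammonium from asparagine, differed little, ASPGA1 by 0.03 (SE 0.14) and ASPGB1 by -0.11 (SE 0.17), as did GDH3, another glutamate dehydrogenase gene, by -0.15 (SE 0.22). With low CO2 replicate 1 left out, ASPGB1 differed by -0.25 and GDH3 by -0.35.

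**Figure D4:**
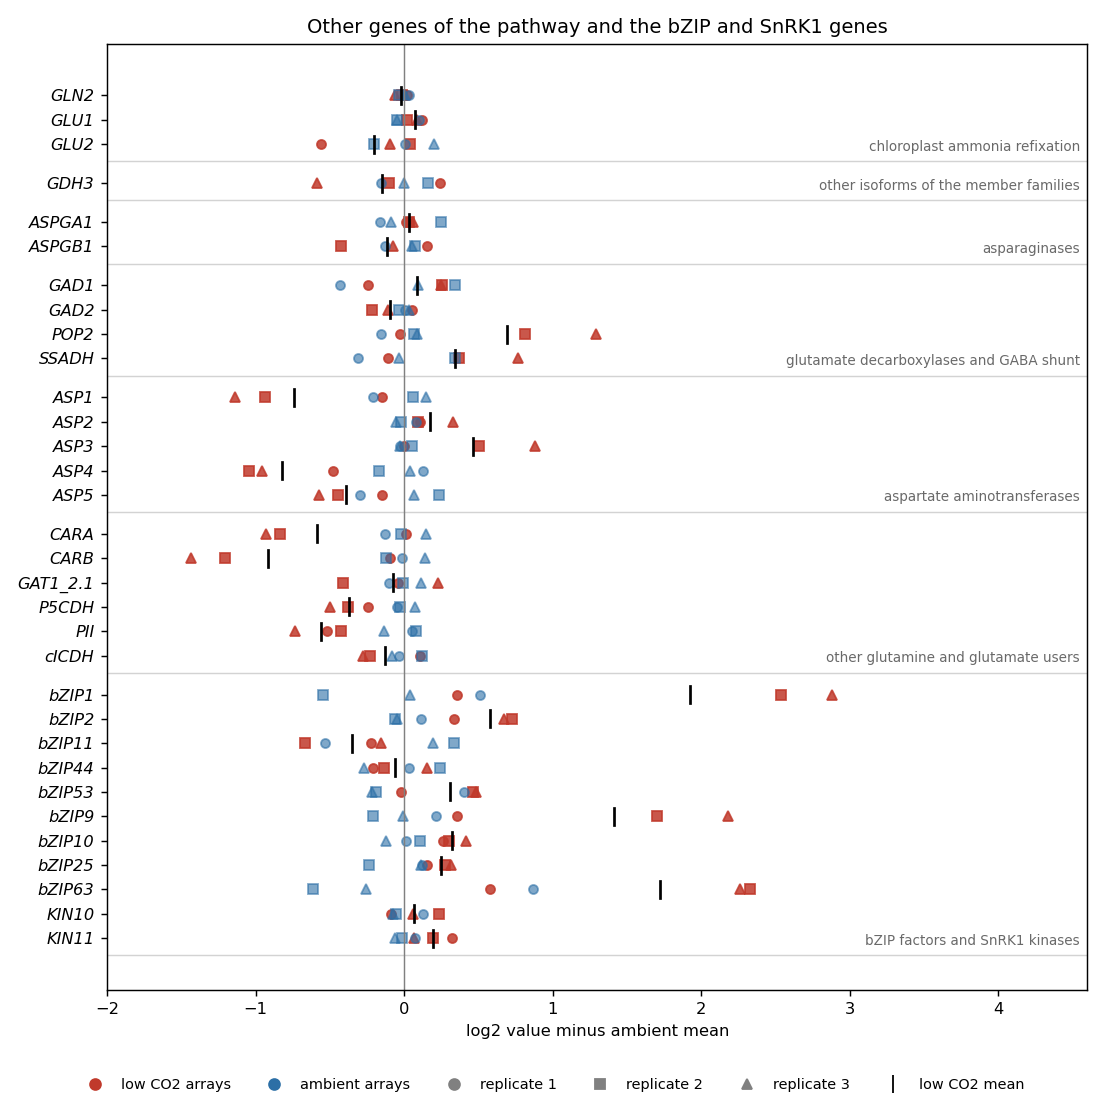
Log2 value minus the ambient mean for 21 other genes of the pathway and 11 bZIP and SnRK1 genes, with low CO2 arrays in red, ambient arrays in blue, symbols for replicate number and a black bar at the low CO2 mean. GLN2 and GLU1 lie close to 0 on all arrays, CARA and CARB are low and bZIP1, bZIP9 and bZIP63 high on low CO2 replicates 2 and 3, with replicate 1 nearer to the ambient arrays.

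ASN1 is a known target of bZIP factors of the S1 and C groups, among them bZIP1 and bZIP53, and of the energy-sensing kinase SnRK1, whose catalytic subunits are KIN10 and KIN11. Of 11 such bZIP and SnRK1 genes 9 had a higher mean under low CO2, and their median difference was 0.31. Limma called 0 on all 6 arrays, and 5 of 11 had an unadjusted p under 0.05, against 26.1% of all tested probe sets. It called 4 of 11 higher and 0 lower without low CO2 replicate 1, against 16.8% and 18.5% of all. The probe sets of the 5 S1 group genes (bZIP1, bZIP2, bZIP11, bZIP44 and bZIP53) each share all 6 values with the probe set of another locus. In each case that locus has a neighbouring number, such as AT5G49448 beside bZIP1 (AT5G49450). Whether both names of a pair stand for the same transcript was not tested. The bZIP1 probe set stood at 7.51, 9.69 and 10.03 on low CO2 replicates 1, 2 and 3, against 7.66, 6.60 and 7.19 on ambient replicates 1, 2 and 3, with replicate 1 of low CO2 inside the ambient range. The C group genes bZIP9 and bZIP63 differed by 1.41 and 1.72, and bZIP2 by 0.58, and these 3 and bZIP1 were the 4 called without that array. With it left out bZIP9, bZIP63, bZIP2 and bZIP1 differed by 1.94, 2.29, 0.70 and 2.71. bZIP53 differed by 0.31 (SE 0.22), KIN10 by 0.07 (SE 0.13) and KIN11 by 0.19 (SE 0.12). The 2 genes with a lower mean were both of the S1 group, bZIP11 by -0.35 (SE 0.26) and bZIP44 by -0.06 (SE 0.17). With low CO2 replicate 1 left out they differed by -0.41 and 0.008.

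The probe sets with the profile most like that of ASN1, by mean absolute distance between log2 values centred over the 6 arrays, were those of the raffinose synthase family genes SIP2 (distance 0.12) and DIN10 (0.18), the locus AT3G15630 (0.13), the glutathione transferase gene GSTU9 (0.19) and the zinc finger gene AZF2, listed as ZF2 in RefSeq (0.20). SIP2 stood at 7.28, 10.38 and 10.31 on low CO2 replicates 1, 2 and 3, against 7.08, 6.64 and 6.37 in ambient air. Nearest to ASN2 were MSR1 (0.06), AT2G28600 (0.07), the phosphoserine aminotransferase gene PSAT2, AT2G17630 (0.08), AT3G27230 (0.09) and RACK1B (0.09), each 1.09 to 1.33 lower in low CO2. These are the closest of the tested profiles over 6 arrays and describe likeness alone. The 10 genes and all probe sets that share their values with another, the S1 group bZIP genes among them, were left out of the search.

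Of 6 senescence markers tested, 5 had a higher mean in low CO2 and SAG13 a lower one, by -0.20. The low CO2 values of 4 (ORE1, NAP, SGR1 and WRKY53) lay above every ambient value, low CO2 replicate 1 included, where 14.6% of all tested probe sets did so. The mean level of the 7 markers on the array was 6.74 to 7.46 in low CO2 and 5.84 to 6.57 in ambient air. SAG12, the defining marker of advanced senescence, stayed under log2 4 on all 3 low CO2 arrays. The part of senescence in the differences above was not tested. Of 8 vascular markers, the tissue in which several GLN1 genes and ASN2 are known to be active, 0 had an unadjusted limma p under 0.05, against 26.1% of all tested probe sets. Their mean level was 6.85 to 7.21 in low CO2 and 6.92 to 7.09 in ambient air. On low CO2 replicates 2 and 3 SUC2, XCP1, XCP2 and ATHB8 lay above every ambient array, as did 28.5% of all tested probe sets, and the other vascular markers overlapped. SUC2 was almost level there, at 9.4896 on low CO2 replicate 3 and 9.4884 on ambient replicate 1. Without low CO2 replicate 1 limma called 0 of the 8, and their median difference went from 0.13 to 0.17.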

How the data were processed

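Biotin-labelled leaf cRNA was hybridised to Affymetrix arrays, per the labels' protocols. The authors' deposited values are log2 levels from GCRMA, a tool named in the submitters' processing notes. GCRMA adjusts for background, equalizes the arrays and combines the probes of a set, which makes array distributions alike and compresses weak signals. The log base was read from the range of the values. Probe sets carry locus names; neither their grouping nor a genome build is named in the labels, so no coordinates or sequences are printed. RefSeq symbols (assembly TAIR10.1) were found for 21231 of 21430 loci.

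The labels gave groups and replicate numbers. Probe sets with log2 4 or more on 3 or more arrays were tested with limma 3.58.1 (R 4.3.3, lmFit and eBayes, two-sided, no covariates, adjusted p threshold 0.05). Differences between genes of a family used exact permutation of the arrays. The fit was tested on simulated data. Alternatives were no filter, a floor of log2 5, trend and robust eBayes, quantile normalization, median centring, a replicate block, array weights and each array left out. The 10 genes and the other lists were chosen with earlier results of these data known. Other genes were named as the 2 of each list with the smallest p, with GLN2, GLU1, genes called without 1 low CO2 array and the 5 profiles nearest to the genes with the largest positive and negative difference. The values of bZIP53, bZIP11, bZIP44, KIN10, KIN11 and the senescence and vascular markers were added to these as context after they were seen. Of all probe sets 221 share their 6 values with another, 5 of them of listed genes. The number of arrays limits the precision.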

Additional observations from a re-analysis of the deposited data

How the results depend on the processing

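With no filter, a floor of log2 5, trend and robust eBayes, quantile normalization, median centring or the replicate block, limma called 0 of the 10 genes and 0 of all probe sets, and no gene changed direction. In the replicate block fit 4 of the 10 genes had an unadjusted limma p under 0.05, as did 3223 of all 16210 tested probe sets. Without the block these counts were 5 and 4236. The deviations of same-numbered arrays from their group means correlated at -0.19, 0.02 and -0.20. With 3 arrays per group and low CO2 replicate 1 standing apart, this cannot settle whether the numbers pair the arrays. Sign flips of the 3 pairs can give no p under 0.25. Leaving out 1 array gave 0 to 5723 called probe sets and 0 to 7 called genes, the highest without low CO2 replicate 1 and 0 in the other 5 omissions. The count of genes without overlap was 4 on all arrays and 8 without that array, an alternative chosen after seeing the data. With array weights limma called 10371 probe sets and 9 of the 10 genes, but the estimation stopped before it converged and put a weight of 40.4 on low CO2 replicate 2 and 0.119 on replicate 1. GLN1;4 ran from -0.032, without low CO2 replicate 3, to 0.54, without low CO2 replicate 1. Among family pairs, GLN1;2 minus GLN1;4 was -0.035 on the deposited values and 0.055 after quantile normalization and ran from -0.47 to 0.31 over the omissions, GLN1;2 minus GLN1;3 from -0.017 to 0.20, and GLN1;3 minus GLN1;4 from -0.46 to 0.12; the causes were not tested.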

Other observations

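The order of the arrays by ASN1 was nearly the reverse of their order by ASN2. ASN1 was highest on low CO2 replicates 3 and 2 (9.61 and 9.55), then ambient replicate 1 (6.19), low CO2 replicate 1 (6.02) and ambient replicates 2 and 3 (5.80 and 5.45). ASN2 was lowest on low CO2 replicates 3 and 2 (8.38 and 8.68), then low CO2 replicate 1 (9.60) and ambient replicates 1, 2 and 3 (9.77, 10.18 and 10.35). The ASN2 order was also that of the first principal component of all tested probe sets, the axis that held 75.7% of their variance. It was therefore not particular to these genes. The ambient array with the highest ASN1 was also the one with the highest GDH1 (7.66), GDH2 (6.75) and bZIP63 (8.25). GLN1;1 and GLN1;4, also with higher means in low CO2, had their lowest ambient values there, at 8.44 and 6.32. Across all tested probe sets, that array correlated more with low CO2 replicates 2 and 3 (0.956 and 0.937) than the other ambient arrays did.

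Ambient replicate 2 had the highest ambient level of GLN1;4, at 7.08. The same array had SAG12 at 5.28, where every other array lay between 3.47 and 3.62, and SAG13 at 6.69, where the low CO2 arrays lay between 5.16 and 5.83 and the other ambient arrays at 5.21 and 4.94. The other senescence markers were mixed there. SGR1 (7.82) was the highest of the ambient values, ORE1 (4.67), NAP (7.91) and PAO (9.07) lay between the other ambient values, and WRKY53 (4.52) was the lowest. GLN1;4 was also at 7.08 and 7.31 on low CO2 replicates 2 and 3, where SAG12 was at 3.62 and 3.50. A link between GLN1;4 and these markers was not tested.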
